A study of Mus musculus with 24 samples.

Results

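The 8 genes described here encode heat shock chaperones of the cytosol and of the mitochondrial matrix: Hspa1b, Hsph1, Dnajb1, Hspa8, Hspa4, Hsp90aa1, Hspd1 and Hspe1. They were taken as a named list, and every probe set that the array annotation assigns to one of them was kept. That gave 14 probe sets of 12422, for 8 genes of 8252. Of the 14 probe sets, 12 passed the filter on low values and were tested. The other two, 100352_at for Hspa4 (21.5 to 217 over all arrays) and 161869_i_at for Hsp90aa1 (4.07 to 115), were below the filter on every array and are given as values.

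The study measured total lung RNA of 2 inbred mouse strains, C57BL/6J and BALB/c, on Affymetrix arrays. Mice received intratracheal bleomycin at 1.5 U per kg, a drug that breaks DNA and leads to lung fibrosis, or intratracheal saline, and lungs were taken at 24 h, 72 h or 14 d. There were 12 groups of 2 arrays (a and b), and no label states that a and b came from separate animals, so p-values measure the spread between these arrays, which may be technical. The labels give no age and no allele or transgene beyond the strain. For the BALB/c saline arrays of 72 h the description names bleomycin while the title names saline. The title was followed there and for the BALB/c saline arrays of 24 h, whose description names both treatments.

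Chaperones of the Hsp70 family bind unfolded stretches of protein and release them in a cycle driven by ATP. J-domain proteins such as Dnajb1 deliver substrates and start ATP hydrolysis, nucleotide exchange factors of the Hsp110 type such as Hsph1 and Hspa4 reset the cycle, and Hsp90 acts later on kinases and receptors. In the mitochondrial matrix, the barrel formed by Hspd1 (Hsp60) and its lid Hspe1 (Hsp10) folds imported proteins. Under proteotoxic stress the transcription factor HSF1 binds arrays of inverted GAA units in the promoters of many of these genes. Hspa1b is the classical inducible member, and Hspa8 is its constitutive relative.

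Promoter sequences are shown for the members whose upstream bases hold such units, because the results turn on the inducible genes and on the Hspd1 and Hspe1 pair. They are from RefSeq on GRCm38.p6, 5′ to 3′ on the gene's strand, with positions counted from the annotated start. Capitals mark GAA or TTC units that lie in a match to GAANNTTC or to its other form, TTCNNGAA. The Hspa1b sequence covers positions -150 to -51 at chr17:34959289-34959388, minus strand. The same 100 bases lie upstream of the neighbouring gene Hspa1a at chr17:34972207-34972306, and over 250 upstream bases the 2 genes differed at 3. The Hsph1 sequence covers positions -60 to -11 from the first of its annotated starts, at chr5:149636347-149636396, minus strand. The Hspe1 sequence covers positions -95 to -66 at chr1:55088053-55088082, plus strand.
Hspa1b: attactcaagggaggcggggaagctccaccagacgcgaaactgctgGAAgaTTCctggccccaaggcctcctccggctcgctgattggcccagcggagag
Hsph1: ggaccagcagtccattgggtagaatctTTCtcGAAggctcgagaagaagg
Hspe1: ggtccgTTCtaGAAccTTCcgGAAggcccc

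The motif of 3 units, GAANNTTCNNGAA or its other form TTCNNGAANNTTC, was present in 198 of 32851 promoter windows of the same length (0.603%), and the motif of 2 units in 4946 of them (15.1%). Both strands are covered by the 2 forms, and matches may overlap. The Hspe1 window held 2 overlapping matches of 3 units. The same bases lie upstream of one of the annotated Hspd1 starts: the annotated spans of Hspd1 and Hspe1, which run in opposite directions on chromosome 1, overlap by 96 bases. The Hsph1 window held 1 match of 3 units, downstream of the start, and the Hspa1b and Hspa1a windows held 1 match of 2 units each, at position -104. The windows of Dnajb1 and Hspa4 held neither motif. A match here is a match of letters. Hspa8 (chromosome 9) and Hsp90aa1 (chromosome 12) are named without a sequence.

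The values are linear intensities in arbitrary units, with a common trimmed mean on all 24 arrays. Several arrays stood apart. The C57BL/6J saline arrays of 24 h had the highest maxima (78641 and 43230, against 6888 to 21462 elsewhere), with the surfactant gene Sftpc as the brightest probe set. The class II gene H2-Ea, which separates these strains, went against the labels on all 4 saline arrays of 72 h: it read 4821 and 3622 on those labelled C57BL/6J and 89.5 and 48.3 on those labelled BALB/c. For that reason values at 72 h are also given without these 4 arrays. In bulk lung RNA, fewer cells of a type and less RNA per cell cannot be told apart.

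**Figure D1:**
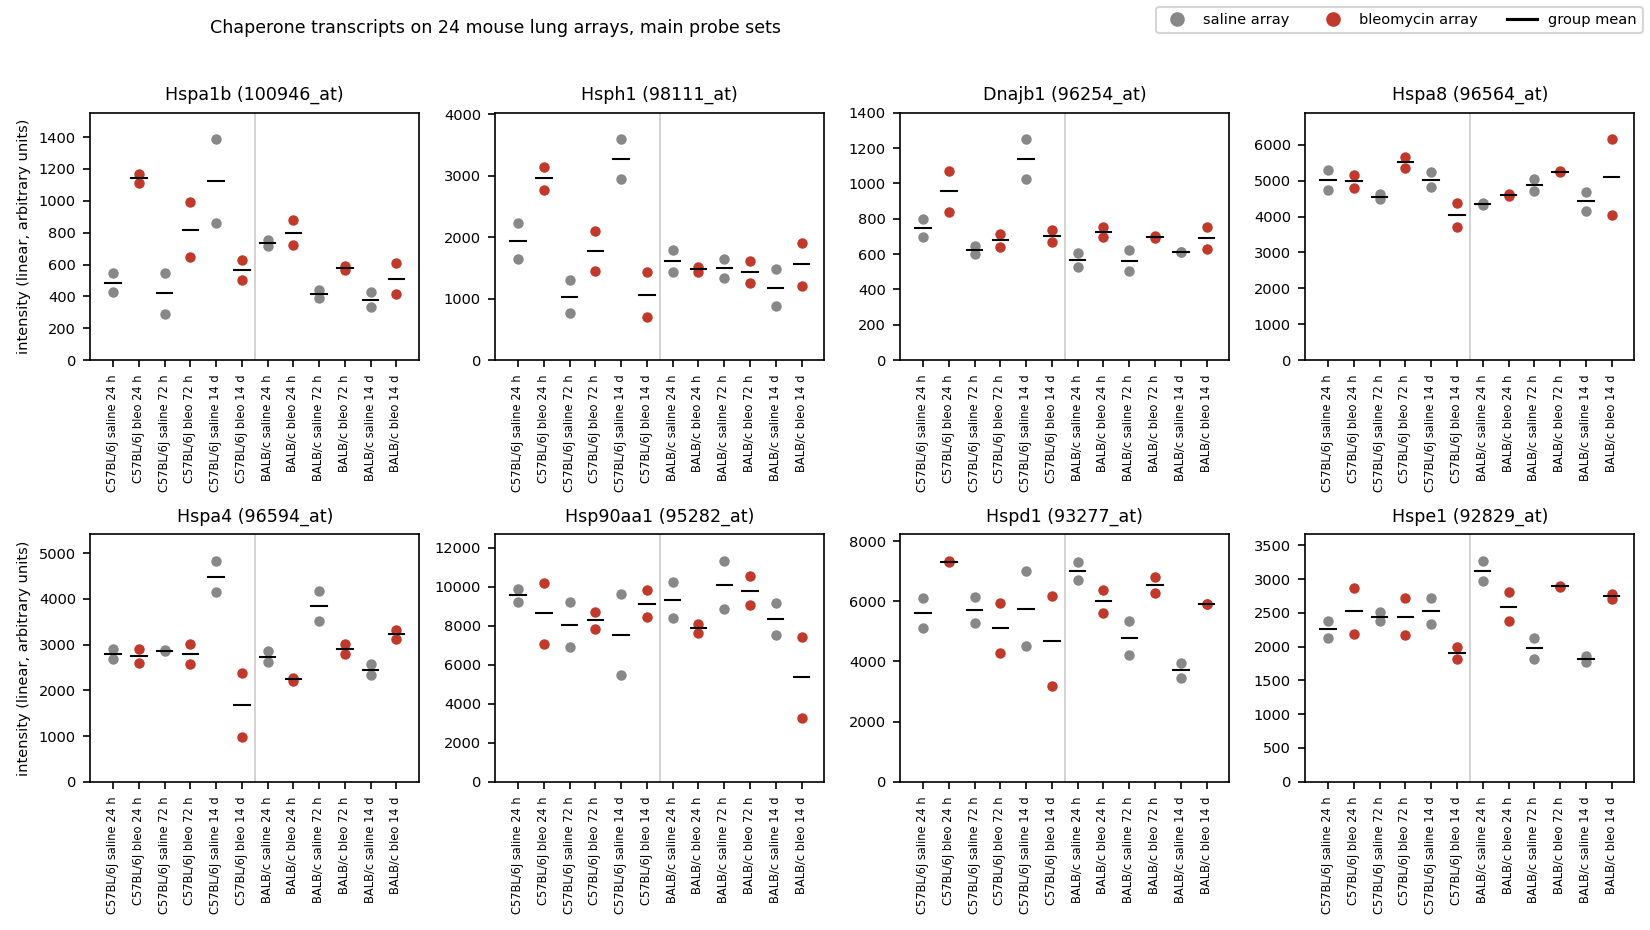
Linear intensity (arbitrary units, vertical axes from 0) of the main probe set of each of the 8 genes in the 12 groups. Each point is an array, grey for saline and red for bleomycin, and black bars are the means of 2 arrays. For Hsph1, Dnajb1 and Hspa4 the C57BL/6J saline 14 d group had the highest mean.

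Across the 12 groups the highest group mean was 3.16 times the lowest for Hsph1, 3.01 times for Hspa1b, 2.68 times for Hspa4 and 2.02 times for Dnajb1 (group means of linear intensity, main probe sets). It was 1.98 times the lowest for Hspd1, 1.88 for Hsp90aa1, 1.72 for Hspe1 and 1.36 for Hspa8. For Hsph1 the order ran from C57BL/6J saline 14 d (3270 ± 459, SD, n = 2) and C57BL/6J bleomycin 24 h (2960 ± 264) down to C57BL/6J bleomycin 14 d (1062 ± 516) and C57BL/6J saline 72 h (1033 ± 380). The arrays of 10 of its 11 neighbouring pairs in that order overlapped. The exception was the step from C57BL/6J bleomycin 24 h to C57BL/6J saline 24 h (1937 ± 420). Dnajb1 had the same top pair in the same order, C57BL/6J saline 14 d (1139 ± 158) above C57BL/6J bleomycin 24 h (956 ± 165), and 9 of its 11 neighbouring pairs overlapped. For Hspa1b the same pair led in the other order (1124 ± 372 and 1141 ± 40.2), with overlapping arrays, and 10 of 11 neighbouring pairs overlapped. The 6 BALB/c groups of Hsph1 lay between 1174 ± 426 and 1616 ± 256, a narrower range than the C57BL/6J groups.

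In C57BL/6J lungs at 24 h after bleomycin, the inducible Hsp70 genes were higher. Hspa1b read 428 and 545 on the saline arrays and 1112 and 1169 on the bleomycin arrays. The groups did not overlap, and both bleomycin arrays were close to each other. The log2 change was 1.10 ± 0.25 (SE, limma, adjusted p = 0.033). Its neighbour Hspa1a, which encodes a nearly identical protein and can share signal with it, read 553 and 397 on the saline arrays and 940.5 and 918 on the bleomycin arrays, a log2 change of 0.86 ± 0.20 (adjusted p = 0.035). Over the 24 arrays the log2 values of Hspa1b and Hspa1a correlated with r = 0.70, a description that shares the arrays and the group structure.

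Of the 12 tested probe sets, 2 were called higher and 0 lower in this comparison, where 2.23% of all 8710 tested probe sets were called (1.19% higher and 1.03% lower). The other was 161140_r_at of Hspd1, described later with the other probe sets. Hsph1 read 1640 and 2234 after saline and 2773 and 3147 after bleomycin. Its groups did not overlap either, but the log2 change of 0.60 ± 0.32 did not pass the test (adjusted p = 0.41). For Dnajb1 the change was 0.31 ± 0.15 (696 and 798 against 839 and 1073) and for the main Hspd1 probe set 0.38 ± 0.26, with adjusted p of 0.36 and 0.55. The Hspa8, Hspe1, Hsp90aa1 and main Hspa4 changes lay between -0.17 and 0.14. The median change of the 12 probe sets was 0.25, against 0.04 over all tested.

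The Hspa1b call at 24 h in C57BL/6J rested on few arrays. It was lost without bleomycin array a (1.13, adjusted p = 0.22), without bleomycin array b (1.06, adjusted p = 0.15) or without saline array a (0.95, adjusted p = 0.26). The control group of this comparison also stood apart in other measures. Of the 11 lung epithelium markers, 6 were tested and 3 of them were called lower after bleomycin (Scgb1a1, Ager and Sftpc). Their summed intensity was 125962 and 192172 on the saline arrays and 6768 and 20425 on the bleomycin arrays. Of the 3 tested red cell markers 1 was called lower, the hemoglobin gene Hba-a1 (-6.15 ± 1.07, adjusted p = 0.0053), with sums of 69122 and 40648 after saline and 5309.9 and 6762 after bleomycin. The Gapdh 3′ to 5′ signal ratio, a sign of RNA integrity, was 1.62 and 1.07 on the saline arrays and 0.792 and 0.871 on the bleomycin arrays. The titles of these 2 saline arrays also end in a suffix that no other array carries, and the labels do not say what it means. Suffix and group cannot be told apart, and the part of the other measures in the chaperone result was not tested.

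At 14 d in C57BL/6J 4 of the 12 tested probe sets were called lower and 0 higher. Of all tested probe sets 7.43% were called (3.11% higher and 4.32% lower). The 4 were the main probe sets of Hsph1, Hspa4, Hspa1b and Dnajb1, the Hsp110, Hsp70 and J-domain members. Of these, only Hspa1b was also called at 24 h, where it was higher. The median of the 12 probe sets was -0.32, against -0.07 over all tested.

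Hsph1 read 2946 and 3595 after saline and 697 and 1428 after bleomycin at 14 d in C57BL/6J. The groups were far apart, although the bleomycin arrays also differed from each other. The log2 change was -1.61 ± 0.32 (adjusted p = 0.0055), and without bleomycin array a, the lower one, it was -1.14 (adjusted p = 0.13). Hspa4, by probe set 96594_at, read 4834 and 4145 after saline and 979 and 2371 after bleomycin. The groups did not overlap, and array a was again the lower of the bleomycin pair. The change was -1.49 ± 0.24 (adjusted p = 0.0016), and the call held without each of the 24 arrays in turn. Without bleomycin array a the size was smaller, -0.89. The title of this array ends in a suffix of its own, whose meaning the labels do not give.

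Hspa1b fell from 861 and 1387 to 625 and 503 at 14 d in C57BL/6J, a log2 change of -0.86 ± 0.25 (adjusted p = 0.048). The groups did not overlap, but the call lay close to the threshold and was lost without any of 15 arrays. Without its own arrays it was -0.54 without saline array b (adjusted p = 0.36), -1.0 without bleomycin array a (0.15) and -0.73 without bleomycin array b (0.14). The other 12 arrays, all of other groups (both arrays of the C57BL/6J bleomycin 24 h group and of every BALB/c group except bleomycin 14 d), left the change as it was with adjusted p from 0.054 to 0.062. Dnajb1 fell from 1027 and 1250 to 669 and 737, with no overlap. Its change was -0.62 ± 0.15 (adjusted p = 0.020), and the call was lost without bleomycin array a (-0.56, adjusted p = 0.18) or saline array b (-0.49, adjusted p = 0.16). Hspa1a, not a member, fell by 0.83 ± 0.20 on the log2 scale (adjusted p = 0.020). Its bleomycin arrays of 14 d read 599 and 519, a range that overlapped its C57BL/6J saline arrays of 24 h, 553 and 397.

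The mitochondrial members, the constitutive Hsp70 Hspa8 and the stress-inducible Hsp90aa1 were not called at 14 d in C57BL/6J. Hspe1 differed by -0.39 ± 0.15 (adjusted p = 0.14), the main Hspd1 probe set by -0.33 ± 0.26 (adjusted p = 0.49), Hspa8 by -0.31 ± 0.16 (adjusted p = 0.28) and Hsp90aa1 by 0.32 ± 0.31 (adjusted p = 0.60). The Hspa8 bleomycin arrays, 4380 and 3710, lay below its saline arrays, 5238 and 4821. The markers of other cells moved in the same comparison. Of 14 tested heart and skeletal muscle markers 6 were called lower, with sums over 16 measured markers of 17872 and 19187 after saline and 8604 and 11929 after bleomycin. Of 8 tested T and B cell markers 3 were called lower, the B cell genes Cd79a, Cd79b and Ms4a1, and 1 of 9 macrophage markers, Cd68, was called higher. Of 14 tested cell cycle markers 2 were called higher. Of 6 tested lung epithelium markers 0 were called, with sums of 2548 and 10493 after saline and 8901 and 60456 after bleomycin. Their part in the chaperone result was not tested.

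**Figure D2:**
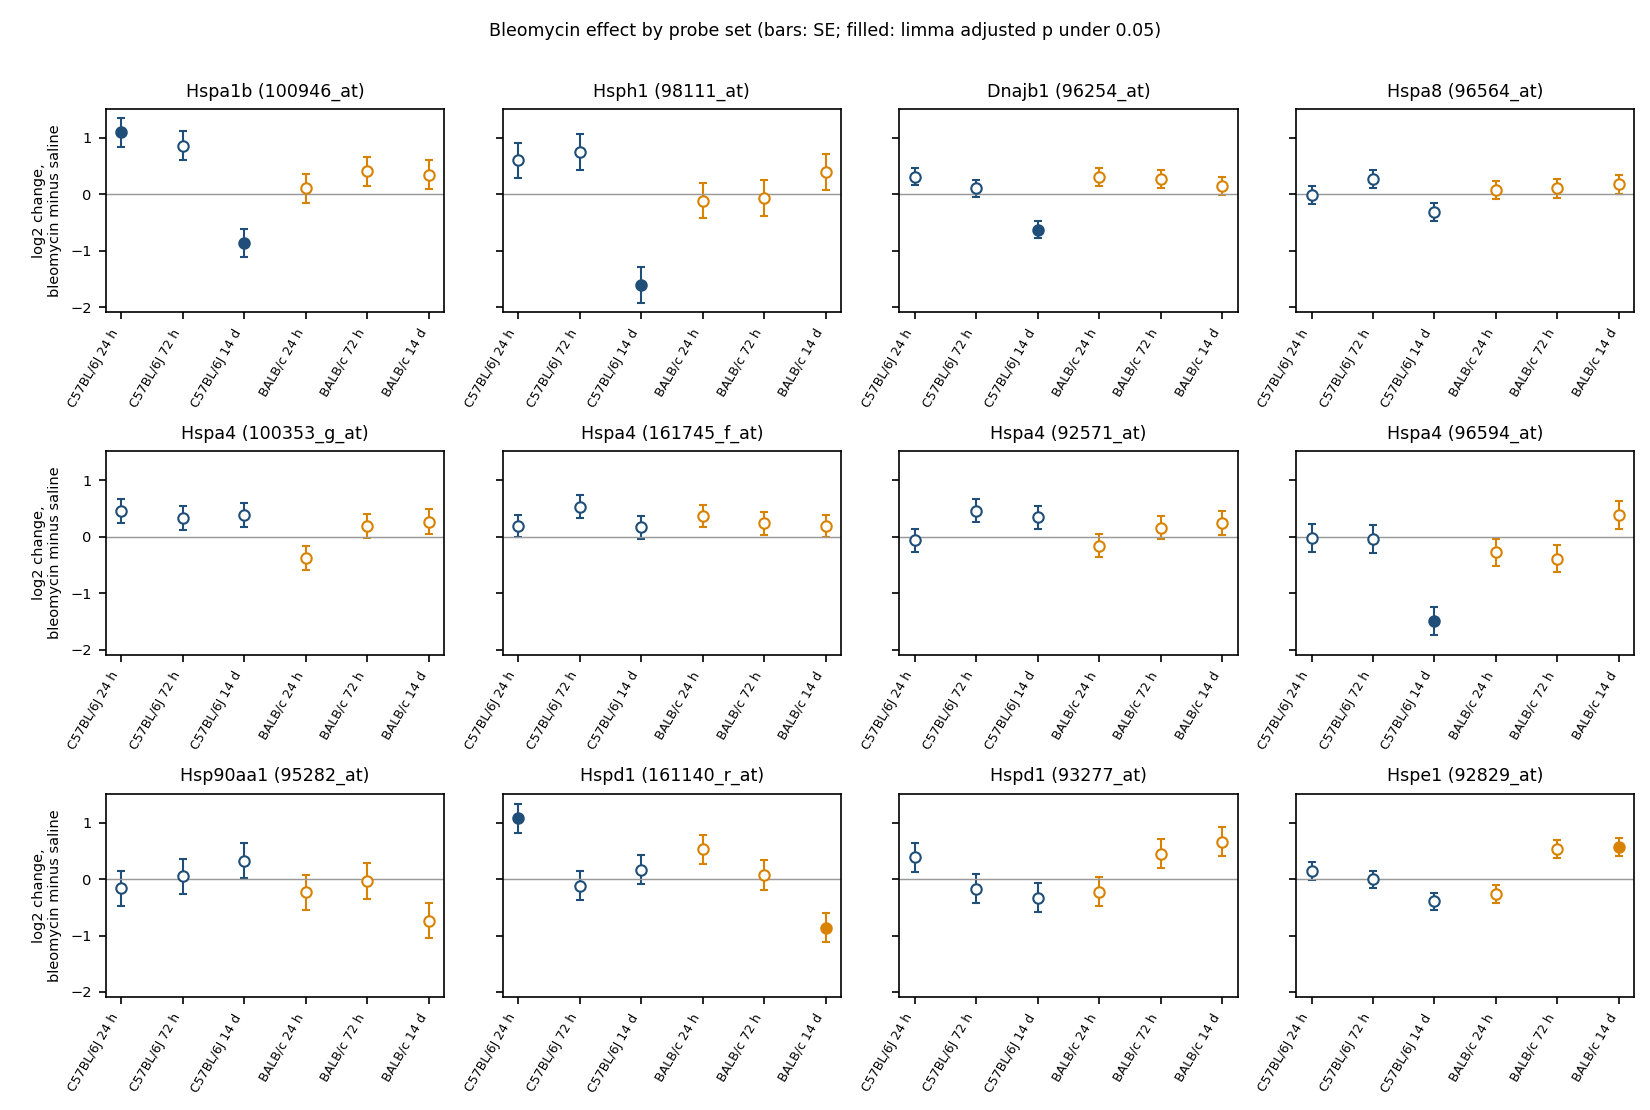
Log2 change, bleomycin minus saline of the same time, for the 12 tested probe sets in each strain (blue for C57BL/6J, orange for BALB/c) at 24 h, 72 h and 14 d. Points are fitted values, bars are SE, and filled points have a limma adjusted p under 0.05. At 14 d in C57BL/6J the values of Hsph1 (-1.61), Hspa4 96594_at (-1.49), Hspa1b (-0.86) and Dnajb1 (-0.62) were below 0.

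The difference between the 24 h and 14 d results depended on which saline arrays served as the control. The C57BL/6J saline arrays of 14 d held the highest mean of any group for Hsph1, Dnajb1 and Hspa4 96594_at, and the next to highest for Hspa1b. After these values were seen, the 14 d bleomycin arrays were also set against the saline arrays of 24 h. The Hsph1 change was then -0.87 ± 0.32 (adjusted p = 0.082), the Hspa4 96594_at change -0.83 ± 0.24 (adjusted p = 0.037), the Dnajb1 change -0.08 ± 0.15 (adjusted p = 0.79) and the Hspa1b change 0.18 ± 0.25 (adjusted p = 0.69). The sign of Hspa1b turned and the Dnajb1 difference was near 0. Hsph1 and Hspa4 96594_at kept a negative sign, with a call for Hspa4 96594_at and none for Hsph1. The other tested Hspa4 probe sets had higher means after bleomycin at 14 d than after saline at 24 h. The means were 895 and 533 for 100353_g_at, 712 and 516 for 92571_at, and 247 and 181 for 161745_f_at.

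All 6 saline arrays labelled C57BL/6J were also used as the control. They include those of 72 h, on which H2-Ea went against the label. With this control, Hsph1 was lower at 14 d by -0.83 ± 0.26 (adjusted p = 0.036) and Hspa4 96594_at by -1.06 ± 0.20 (adjusted p = 0.0019). Hspa1b (-0.09, adjusted p = 0.81) and Dnajb1 (-0.18, adjusted p = 0.35) were not called. The rise of Hspa1b at 24 h was 0.82 ± 0.21 against all saline arrays (adjusted p = 0.028) and 0.05 ± 0.25 against the saline arrays of 14 d (adjusted p = 0.94). The direction of the Hspa1b difference at 24 h held against saline of 24 h and against all saline arrays, and it was near 0 against saline of 14 d.

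**Figure D3:**
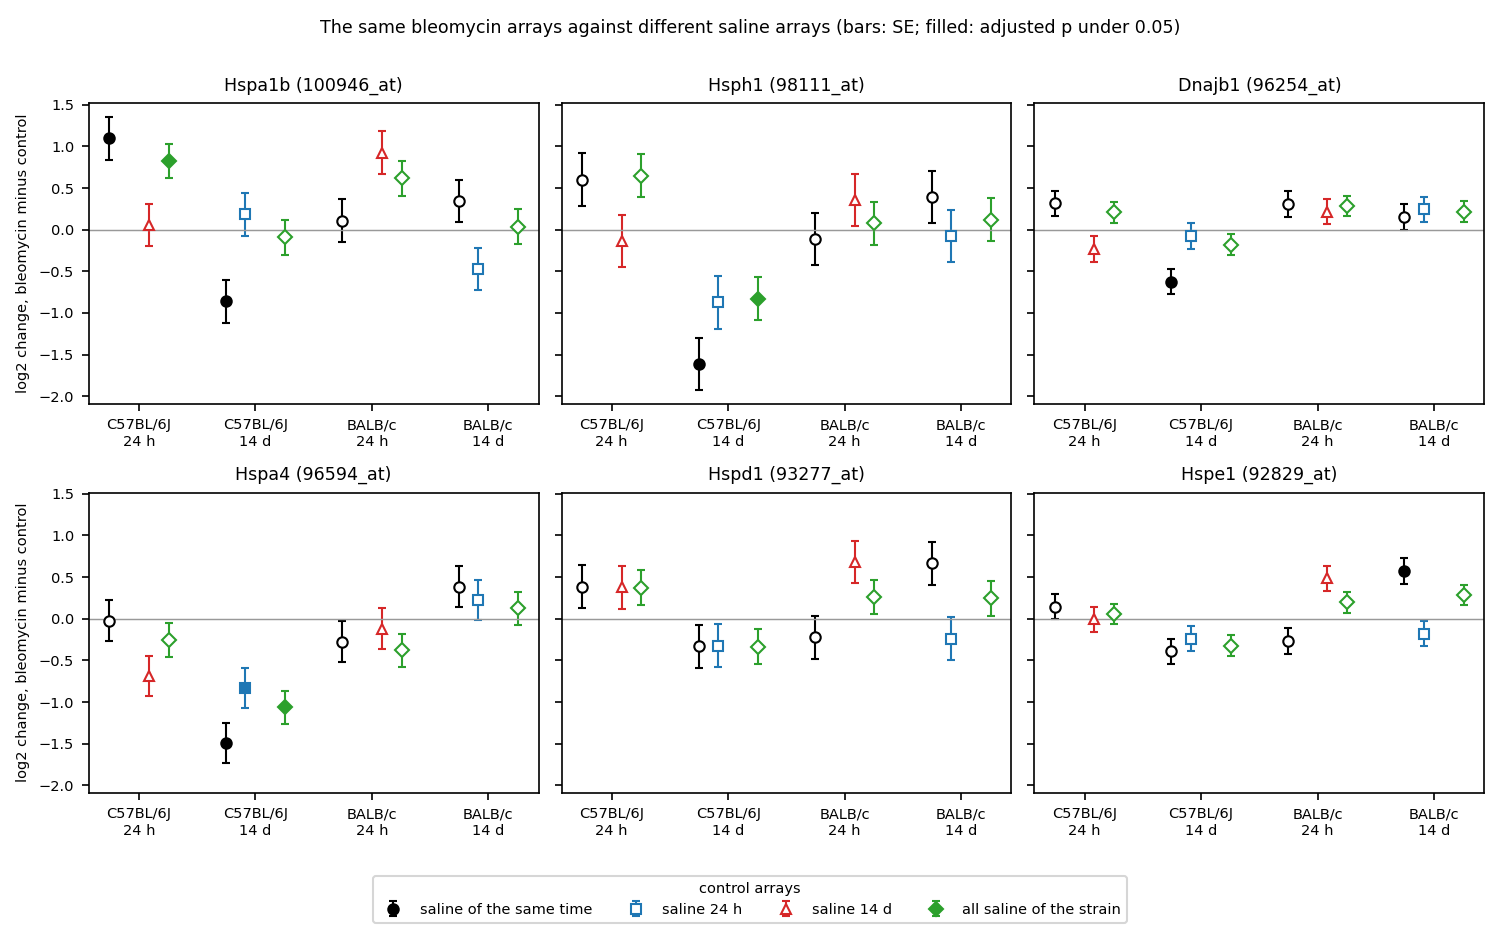
Log2 change of the same bleomycin arrays against saline of the same time (black circles), saline of 24 h (blue squares), saline of 14 d (red triangles) or all saline arrays of the strain (green diamonds), for 6 probe sets, with SE bars. The control of all saline arrays takes the strain from the labels and includes the arrays of 72 h. Filled symbols have a limma adjusted p under 0.05. The Hspa4 96594_at value at 14 d in C57BL/6J was below 0 and called with each control shown, -1.49, -0.83 and -1.06.

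The change of the bleomycin effect between 24 h and 14 d was tested directly. In C57BL/6J, 4 of 12 probe sets were called lower at 14 d than at 24 h, where 2.71% of all tested probe sets were called (1.44% higher and 1.27% lower). Hsph1 differed by -2.21 ± 0.45 (adjusted p = 0.014), Hspa1b by -1.96 ± 0.36 (0.0087), Hspa4 96594_at by -1.47 ± 0.34 (0.030) and Dnajb1 by -0.94 ± 0.22 (0.028). With 1 common control group the saline arrays cancel, and the bleomycin arrays of 14 d were compared with those of 24 h: Hsph1 was lower by -1.48 ± 0.32 (adjusted p = 0.0085), Hspa1b by -0.92 ± 0.25 (adjusted p = 0.033) and Hspa4 96594_at by -0.81 ± 0.24 (adjusted p = 0.048). Dnajb1 was not called in that comparison (-0.39 ± 0.15, adjusted p = 0.12). The Hspa1b call on the change held without each array in turn. The Hsph1 call was lost without bleomycin 14 d array a (-1.74, adjusted p = 0.083), bleomycin 24 h array b (-2.13, 0.051), saline 14 d array b (-2.07, 0.059) or saline 24 h array a (-2.0, 0.053).
The Dnajb1 call on the change was lost without the same 4 arrays, with adjusted p from 0.094 to 0.12. The Hspa4 96594_at call was lost without any of 7 of the 8 arrays in the comparison, with adjusted p from 0.061 to 0.11. Among those 7 the largest shift was without bleomycin 14 d array a (-0.87). Over all fits without 1 array the change ranged from -2.07 to -0.87. In the same comparison 4 of 6 tested lung epithelium markers were called higher (Scgb1a1, Sftpc, Ager and Sftpb, by 5.07 to 7.98), as were 1 of 3 red cell markers (Hba-a1, 8.20 ± 1.51), 1 of 9 macrophage markers (Marco) and 1 of 14 cell cycle markers (Cdk1), and 1 of 14 muscle markers (Myl7) was called lower. Their part in the chaperone change was not tested.

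At 72 h in C57BL/6J 0 of 12 tested probe sets were called. Of all tested probe sets 6.61% were called by limma (4.12% higher and 2.49% lower). Before adjustment 4 of the 12 had a limma p under 0.05, as did 1791 of all 8710 tested probe sets. Hspa1b read 548 and 288 after saline and 994 and 646 after bleomycin, without overlap, and its change of 0.86 ± 0.25 lay just outside the threshold (adjusted p = 0.052). Without the 4 saline arrays of 72 h, against saline of 24 h and 14 d, it was 0.11 ± 0.20 (adjusted p = 0.79). Hsph1 read 1302 and 765 after saline and 2106 and 1456 after bleomycin, a change of 0.76 ± 0.32 (adjusted p = 0.18), and -0.49 ± 0.27 without those 4 arrays. The sign of the Hsph1 difference at 72 h therefore depended on the control. Hspa8 differed by 0.27 ± 0.16 and the main probe sets of Dnajb1, Hspa4, Hsp90aa1, Hspd1 and Hspe1 by -0.17 to 0.11. The other tested Hspa4 probe sets were higher after bleomycin, as labelled, and none was called. The changes were 0.53 ± 0.20 for 161745_f_at (adjusted p = 0.13), 0.46 ± 0.21 for 92571_at (0.21) and 0.34 ± 0.21 for 100353_g_at (0.41). Their values without the saline arrays of 72 h are not given here. Without those 4 arrays Dnajb1 differed by -0.40 ± 0.13 (adjusted p = 0.094) in place of 0.11, and 161140_r_at of Hspd1 by 0.77 ± 0.24 (adjusted p = 0.070) in place of -0.12. Hspa8 then differed by 0.13, and the main probe sets of Hspa4, Hsp90aa1, Hspd1 and Hspe1 by -0.34 to 0.03. None was called.

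In BALB/c lungs 0 of 12 probe sets were called by limma at 24 h or at 72 h. Of all tested probe sets 0.218% were called at 24 h (0.126% higher and 0.0918% lower) and 1.32% at 72 h (0.62% higher and 0.7% lower). Before adjustment 0 of the 12 had a p under 0.05 at 24 h and 1 at 72 h. Over all 8710 tested probe sets the counts at that cut were 1182 and 919. Hspa1b read 714 and 751 after saline and 724 and 877 after bleomycin at 24 h, with overlapping groups and a change of 0.11 ± 0.25. Hsph1 was also within its spread there, 1797 and 1435 against 1520 and 1439 (-0.11 ± 0.32). At 72 h Hspe1 read 1819 and 2128 after saline and 2903 and 2879 after bleomycin. The groups did not overlap, and the change of 0.53 ± 0.15 did not pass (adjusted p = 0.12). Without the 4 saline arrays of 72 h it was 0.27 ± 0.14 (adjusted p = 0.26). The main Hspa4 probe set differed by -0.39 with those arrays and by 0.16 without them, and Hspa1b by 0.41 and 0.11, none of them called.

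In BALB/c at 14 d 1 of 12 tested probe sets was called higher, that of Hspe1, and 1 lower, 161140_r_at of Hspd1 (-0.86 ± 0.26). Of all tested probe sets 13.3% were called (7.9% higher and 5.4% lower), so the members' count was near the background. Hspe1 read 1777 and 1857 after saline and 2703 and 2785 after bleomycin. Each pair was tight and the pairs were well apart, with a change of 0.57 ± 0.15 (adjusted p = 0.022). Hspd1, by its main probe set, read 3959 and 3442 after saline and 5922 and 5903 after bleomycin. Its groups did not overlap either, and the change of 0.67 ± 0.26 did not pass (adjusted p = 0.092). With quantile normalization it was 1.23 ± 0.35 (adjusted p = 0.026).

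The BALB/c rise of Hspe1 at 14 d also depended on the control. Its saline arrays of 14 d had the lowest mean of the 12 groups (1817 ± 56.5) and its saline arrays of 24 h the highest (3121 ± 209). Against saline of 24 h the Hspe1 change at 14 d was -0.18 ± 0.15 (adjusted p = 0.52). Against all saline arrays labelled BALB/c, those of 72 h included, it was 0.28 ± 0.13 (adjusted p = 0.15). The call was lost without bleomycin array b (0.55, adjusted p = 0.14), saline array a (0.54, 0.13) or saline array b (0.60, 0.096). In the same comparison 8 of 14 tested cell cycle markers were called higher, with sums of 8070 and 8786 after saline and 11394 and 14583 after bleomycin, and 3 of 6 lung epithelium markers were called lower, with sums of 15622 and 16209 against 1408 and 2706. Sftpc read 5.78 on bleomycin array b. Of 9 tested macrophage markers 2 were called higher and 1 lower, and of 6 tested neutrophil markers 1 was called higher. Their part in the chaperonin result was not tested.

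From 24 h to 14 d in BALB/c, 1 of the 12 probe sets was called higher and 1 lower, where 4.97% of all tested were called (3.02% higher and 1.95% lower). Hspe1 differed by 0.84 ± 0.22 (adjusted p = 0.036). With 1 common control, which compares the bleomycin arrays of the 2 times, the difference was 0.09 ± 0.15 (adjusted p = 0.75). The Hspe1 level after bleomycin was 2587 ± 305 at 24 h and 2744 ± 57.6 at 14 d, while the saline means were 3121 at 24 h and 1817 at 14 d. The call was lost without any of 6 of the 8 arrays in it, with adjusted p from 0.066 (saline 24 h array a) to 0.16 (bleomycin 24 h array b). The others were saline 24 h array b, both saline 14 d arrays and bleomycin 14 d array b.

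The strains differed in the 14 d effect. Of the 12 probe sets, 5 were called lower in C57BL/6J than in BALB/c and 0 higher, where 7.43% of all tested probe sets were called (2.55% higher and 4.88% lower). The differences were -2.0 ± 0.45 for Hsph1 (adjusted p = 0.017), -1.88 ± 0.34 for Hspa4 96594_at (0.0058), -1.21 ± 0.36 for Hspa1b (just under the threshold), -0.96 ± 0.22 for Hspe1 (0.018) and -0.77 ± 0.22 for Dnajb1 (0.040). In BALB/c the same probe sets of Hsph1 (1475 and 872 after saline, 1208 and 1911 after bleomycin), Hspa1b (426 and 331, 414 and 608) and Dnajb1 (609 and 613, 754 and 626) changed by 0.39 ± 0.32, 0.35 ± 0.25 and 0.15 ± 0.15. None of these passed the test, and the Hsph1 and Hspa1b groups overlapped. Hspa4 96594_at read 2566 and 2330 after saline and 3119 and 3331 after bleomycin in BALB/c, without overlap and without a call (0.39 ± 0.24, adjusted p = 0.31). Markers of other cells differed between the strains in the same comparison. Of 6 tested lung epithelium markers 3 were called higher (Scgb1a1, Sftpb and Ager, by 5.70 to 6.46), with C57BL/6J sums of 2548 and 10493 after saline and 8901 and 60456 after bleomycin. Of 8 tested T and B cell markers 2 were called lower (Cd79a and Cd79b), and of 14 muscle markers 2 (Myh6 and Tnni3). Their part in the chaperone difference was not tested.

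These strain differences depended on which saline arrays of both strains were used. For Hspe1 the BALB/c saline means were 1817 at 14 d and 3121 at 24 h, and the C57BL/6J ones 2523 and 2258. Against saline of 24 h they were -0.80 ± 0.45 for Hsph1 (adjusted p = 0.34), -1.06 ± 0.34 for Hspa4 96594_at (0.098), 0.65 ± 0.36 for Hspa1b (0.33), -0.06 ± 0.22 for Hspe1 (0.91) and -0.32 ± 0.22 for Dnajb1 (0.44). None was called, and that of Hspa1b had the opposite sign. Against all saline arrays labelled as each strain, Hspa4 96594_at (-1.19 ± 0.28, adjusted p = 0.021) and Hspe1 (-0.61 ± 0.18, adjusted p = 0.048) were called. That control includes the arrays of 72 h, on which H2-Ea went against the labels. Without single arrays, the Hspa4 96594_at call held in all 24 fits. The Hsph1 call was lost without BALB/c bleomycin array b (-1.69, 0.080), BALB/c saline array b (-1.65, 0.082), C57BL/6J bleomycin array a (-1.53, 0.063) or C57BL/6J saline array b (-1.86, 0.052). The Hspe1 call was lost without any of 4 arrays of 14 d (BALB/c bleomycin b, both BALB/c saline arrays and C57BL/6J saline b; adjusted p from 0.057 to 0.066), the Dnajb1 call without any of 8 arrays (the 4 BALB/c arrays of 14 d, C57BL/6J bleomycin 14 d a, C57BL/6J saline 14 d b and both BALB/c bleomycin 72 h arrays; 0.054 to 0.14) and the Hspa1b call without any of 18 arrays (6 of the 8 of 14 d, both of every 24 h group and all BALB/c arrays of 72 h; 0.053 to 0.19).
At 24 h and 72 h 0 of 12 probe sets differed between strains by limma. Of all tested probe sets 0.023% and 3.08% were called (at 72 h 1.83% higher and 1.25% lower). Before adjustment 2 and 1 of the 12 had a limma p under 0.05. Over all 8710 tested probe sets the counts at that cut were 840 and 1160. The Hspa1b difference at 24 h was 0.99 ± 0.36 (adjusted p = 0.38), so the call in C57BL/6J and its absence in BALB/c at 24 h were not shown to differ. Without the 4 saline arrays of 72 h the strain difference at 72 h was -0.56 ± 0.38 for Hsph1 (adjusted p = 0.52) in place of 0.82, -0.61 ± 0.19 for Dnajb1 (0.14) in place of -0.16 and 0.00 for Hspa1b in place of 0.45.

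After saline alone, the strains were compared over the 3 times. Dnajb1 was higher in C57BL/6J by 0.43 ± 0.09 (adjusted p = 0.016), and 161140_r_at of Hspd1 was lower by -0.62 ± 0.15 (adjusted p = 0.034), so 2 of 12 probe sets were called, where 2.66% of all tested were called (1.69% higher and 0.976% lower). The C57BL/6J saline arrays of Dnajb1 read 600 to 1250 and the BALB/c ones 503 to 622. The ranges overlapped at 72 h, where the labels and H2-Ea disagree, and not at 24 h or 14 d. Without the 72 h arrays the Dnajb1 difference was 0.57 ± 0.11 (adjusted p = 0.0042), and that of Hsph1 was 0.84 ± 0.22 (adjusted p = 0.023) in place of 0.39 ± 0.18 (adjusted p = 0.29). The Dnajb1 call over the 3 times was lost without C57BL/6J saline 72 h array a (0.41, adjusted p = 0.056) or BALB/c saline 14 d array a (0.43, adjusted p = 0.0501). The call on 161140_r_at was lost without any of 10 of the 12 saline arrays (all but C57BL/6J 24 h b and 14 d b), with adjusted p from 0.057 to 0.094.

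The saline difference was also taken at single times. At 14 d alone 4 of 12 probe sets were called higher in C57BL/6J and 0 lower, where 14.8% of all tested were called (8.74% higher and 6.08% lower). At 24 h alone 0 were called higher and 1 lower, where 2.5% were called (1.45% higher and 1.06% lower). The difference between the times was not tested. At 14 d C57BL/6J was higher than BALB/c by 1.44 ± 0.32 for Hsph1 (adjusted p = 0.0062), 1.34 ± 0.25 for Hspa1b (0.0026), 0.80 ± 0.15 for Dnajb1 (0.0028) and 0.85 ± 0.24 for Hspa4 96594_at (0.027). At 24 h alone the differences were 0.24 ± 0.32 for Hsph1, -0.52 ± 0.25 for Hspa1b, 0.35 ± 0.15 for Dnajb1 and 0.03 ± 0.24 for Hspa4 96594_at, and none of them was called. The probe set called at 24 h was 161140_r_at of Hspd1 (adjusted p = 0.0051). Its C57BL/6J arrays, 80.3 and 105, lay below the filter of 226 and near the added offset of 92, so no size is given against the BALB/c mean of 396. At 14 d its means were 268 and 504, which did not pass (-0.73 ± 0.26, adjusted p = 0.065). The split by time was made after the values were seen. On the 14 d arrays the Gapdh 3′ to 5′ signal ratio was 0.583 to 0.797, and it was above 1 on the C57BL/6J saline 24 h arrays, the 4 saline 72 h arrays and the BALB/c bleomycin 72 h arrays (1.07 to 2.16). Its part in the saline differences was not tested.

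Probe sets of the same gene did not move together. For Hspa4, probe set 96594_at fell at 14 d in C57BL/6J, while 100353_g_at (621 and 708 after saline, 805 and 985 after bleomycin), 92571_at (532 and 534, 846 and 577) and 161745_f_at (246 and 176, 274 and 220) differed by 0.38 ± 0.21, 0.34 ± 0.21 and 0.17 ± 0.20. The bleomycin arrays of 100353_g_at and 92571_at lay above their saline arrays, opposite to 96594_at, and none of the 3 was called. Over the 24 arrays 96594_at correlated with the 4 other Hspa4 probe sets with r between -0.29 and 0.07 on the log2 scale. The others correlated among themselves with r from 0.07 to 0.46. The Hspa4 results above are therefore results of 96594_at.

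**Figure D4:**
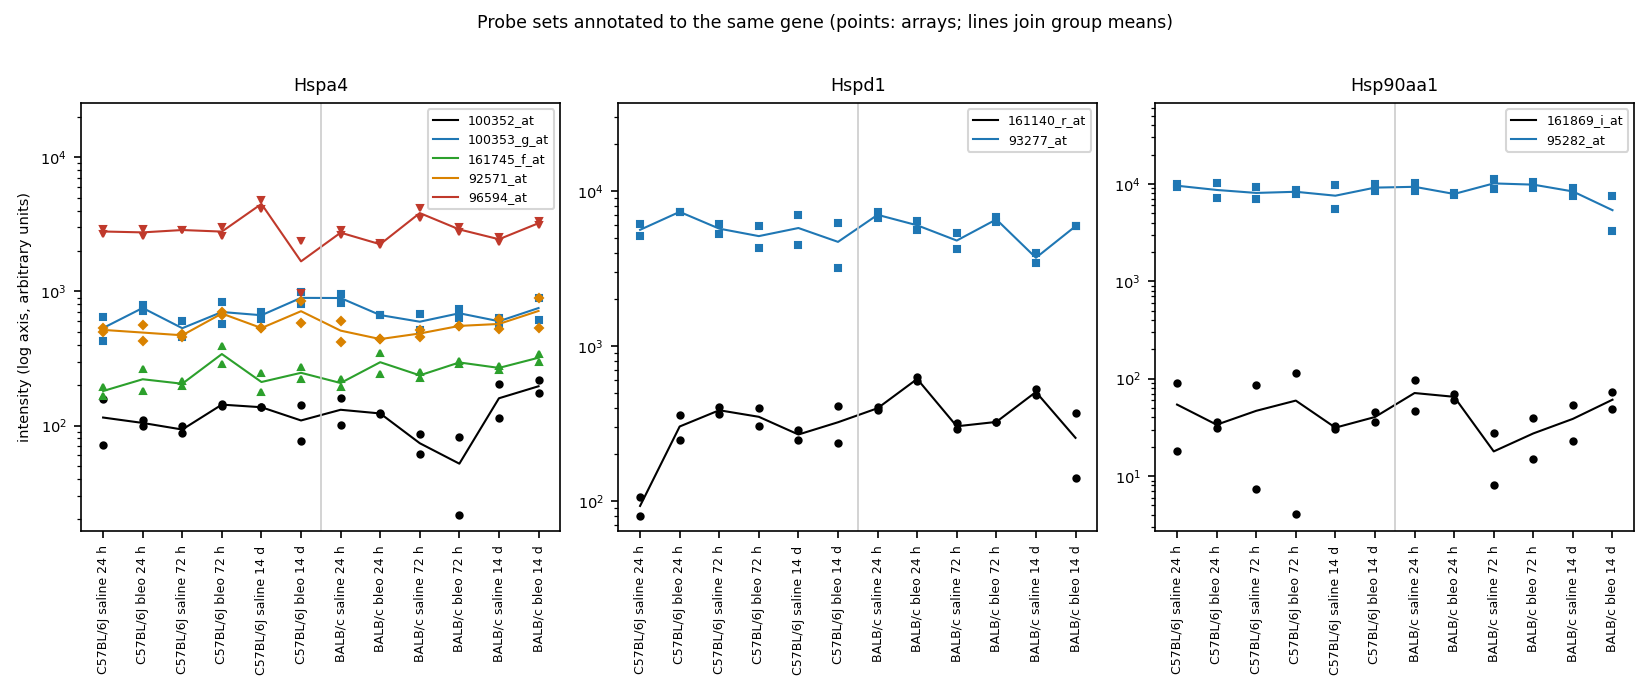
Intensity (log axis, arbitrary units) of all probe sets annotated to Hspa4, Hspd1 and Hsp90aa1 in the 12 groups. Points are arrays and lines join the means of 2 arrays. In the Hspa4 panel 96594_at was highest in C57BL/6J saline 14 d and lowest in C57BL/6J bleomycin 14 d, and the lines of the other 4 probe sets did not follow it.

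The 2 Hspd1 probe sets also disagreed, with r = 0.02 over the 24 arrays. Probe set 161140_r_at, whose suffix marks a design with relaxed probe rules, read 80.3 and 105 on the C57BL/6J saline arrays of 24 h and 248 and 356 on the bleomycin arrays, without overlap (1.08 ± 0.26, adjusted p = 0.037). Those 2 saline values were its lowest over all arrays and lay below the filter of 226, as did 1 BALB/c bleomycin 14 d array (141). In BALB/c at 14 d it fell from 528 and 481 to 369 and 141 (-0.86 ± 0.26, adjusted p = 0.036), where the main probe set 93277_at read higher after bleomycin. Without bleomycin array b that value was -0.37 (adjusted p = 0.46), without bleomycin array a it was -1.35, and without saline array a or b it was -0.81 (0.18) or -0.92 (0.12). From 24 h to 14 d in BALB/c it was called lower, -1.39 ± 0.36 (adjusted p = 0.037). That call was lost without any of 9 arrays (all of its own 8 except bleomycin 14 d array a, and both BALB/c bleomycin 72 h arrays), with -0.90 (adjusted p = 0.17) without bleomycin 14 d array b and adjusted p up to 0.12 for the rest. The call at 24 h in C57BL/6J was lost without any of its own 4 arrays (0.88 to 1.28, adjusted p from 0.059 to 0.25) or without any of 4 BALB/c arrays (both of bleomycin 72 h and of saline 14 d, adjusted p 0.053). For Hsp90aa1, 161869_i_at stayed below the filter and correlated with 95282_at with r = -0.37.

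Hspa8, the constitutive Hsp70, read between 3710 and 6158 over the 24 arrays, its lowest value on C57BL/6J bleomycin 14 d array b and its highest on BALB/c bleomycin 14 d array b. It was not called in any of the 12 comparisons, and its changes against saline of the same time lay between -0.31 and 0.27. With quantile normalization the Hspa8 change in BALB/c at 14 d was 0.69 ± 0.29 (adjusted p = 0.13) in place of 0.17, and the strain difference at 14 d was -1.12 ± 0.41 (adjusted p = 0.11) in place of -0.49. Hsp90aa1, the stress-inducible cytosolic Hsp90, read between 3295 and 11336 by 95282_at. It was not called in any comparison either, and the largest of its 6 differences from saline was in BALB/c at 14 d (9168 and 7536 after saline, 7433 and 3295 after bleomycin, -0.74 ± 0.31, adjusted p = 0.13). That value rested on single arrays: it was -0.16 (adjusted p = 0.84) without bleomycin array b and -1.31 (adjusted p = 0.0083) without bleomycin array a. Against all saline arrays labelled BALB/c, those of 72 h included, it was -0.88 ± 0.26 (adjusted p = 0.031). The strain difference at 14 d was 1.06 ± 0.44 (adjusted p = 0.15). Its 2 lowest values, 3295 on BALB/c bleomycin 14 d array b and 5468 on C57BL/6J saline 14 d array b, were on the 2 arrays with the lowest maxima (6888 and 9682).

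Hspd1 and Hspe1, whose promoter bases overlap as shown above, varied together by their main probe sets. Over the 24 arrays r was 0.80 on the log2 scale, and over the 12 group means it was 0.87. Both were low on the BALB/c saline 14 d arrays (Hspd1 3442 and 3959, Hspe1 1777 and 1857), and both were high on the BALB/c saline 24 h arrays (Hspd1 6711 and 7296, Hspe1 2973 and 3269). The arrays of C57BL/6J bleomycin at 24 h departed from this: Hspd1 read 7342 and 7294, and Hspe1 2871 and 2179. Among the cytosolic members Hspa1b and Hsph1 correlated with r = 0.75, Hsph1 and Dnajb1 with 0.70 and Hspa1b and Dnajb1 with 0.68. These are correlations over arrays that share groups and scaling.

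**Figure D5:**
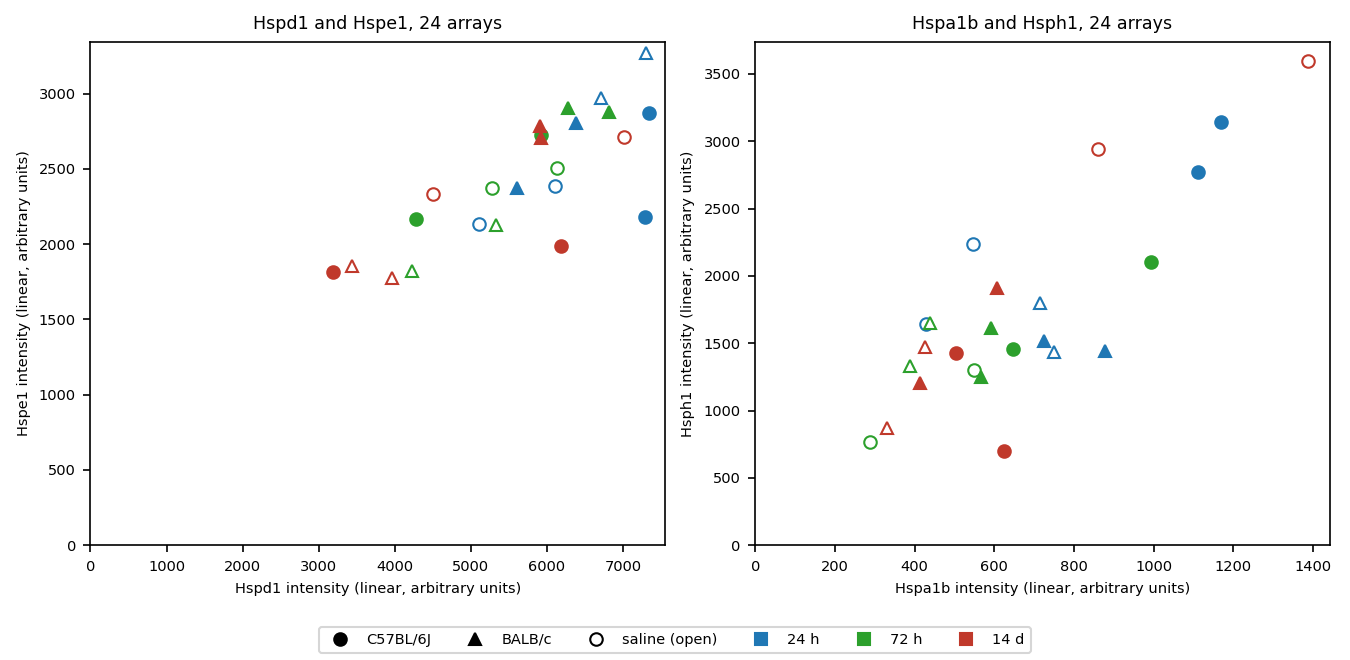
Intensity (linear, arbitrary units, axes from 0) of Hspd1 against Hspe1 and of Hspa1b against Hsph1, main probe sets, 1 point per array. Circles are C57BL/6J, triangles are BALB/c, open symbols are saline, and colours give the time. The points lie along a rising line in both panels, with r = 0.80 and r = 0.75 over 24 arrays on the log2 scale.

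Related chaperones were counted in lists that do not include the 8 members. Among 18 tested cochaperones of Hsp70 and Hsp90, 3 fell and 0 rose at 14 d in C57BL/6J, where 4.32% of all tested probe sets fell. They were the Hsp90-binding immunophilins Fkbp4 (-1.07 ± 0.28, adjusted p = 0.029) and Ppid (-0.91 ± 0.20, 0.012), and Chordc1 (-0.77 ± 0.20, 0.024). The median of the list was -0.14, against -0.07 over all tested probe sets. Fkbp4 read 5130 and 5889 after saline and 1633 and 4009 after bleomycin, and, as for Hsph1 and Hspa4 96594_at, bleomycin array a was the lower one. By this main probe set, the C57BL/6J saline arrays of 24 h read 3730 and 3722, between those 2 bleomycin arrays. The other Fkbp4 probe set, also tested, read 1671 and 1728 on the same saline arrays. Those values lay above its 14 d bleomycin arrays in C57BL/6J, 665 and 1026. Changes of the listed genes at 14 d against other saline arrays are not given here. In BALB/c at that time 2 cochaperones rose, Bag1 (0.45 ± 0.14, adjusted p = 0.041) and the phosphatase Ppp5c (0.65 ± 0.20, 0.037), and 0 fell, where 7.9% of all tested probe sets rose and 5.4% fell. At 24 h and 72 h in either strain 0 of the 18 were called.

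Among 12 tested J-domain proteins other than Dnajb1, 3 fell and 0 rose at 14 d in C57BL/6J, where 4.32% of all tested probe sets fell. They were Dnajb2 (-0.82 ± 0.16, adjusted p = 0.0058), Dnaja1 (-0.80 ± 0.14, 0.0034), a cytosolic partner of Hspa8, and the mitochondrial Dnaja3 (-0.53 ± 0.13, 0.021). Dnajb2 read 1433 and 1725 after saline and 828 and 868 after bleomycin. Its groups were well apart and its pairs tight. The C57BL/6J saline arrays of 24 h, 1251 and 1354, also lay above those bleomycin arrays. The bleomycin effect on Dnaja1 and Dnajb2 also fell between 24 h and 14 d (-1.23 ± 0.20 and -1.15 ± 0.23, adjusted p = 0.0052 and 0.014). In BALB/c 0 of the 12 were called at any of the 3 times.

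Of 3 tested small heat shock proteins Hspb8, which works with the cochaperone Bag3 in selective autophagy, rose in C57BL/6J at 24 h (0.88 ± 0.19, adjusted p = 0.020) and at 72 h (1.05 ± 0.19, adjusted p = 0.0020). Of 12 tested subunits of the cytosolic chaperonin TRiC and of prefoldin, Cct3 rose at 72 h in C57BL/6J (0.85 ± 0.18, adjusted p = 0.0065), and 0 were called in the other 5 comparisons with saline. Without the 4 saline arrays of 72 h the 72 h difference was 0.56 ± 0.16 for Hspb8 (adjusted p = 0.047) and 0.24 ± 0.15 for Cct3 (adjusted p = 0.39). Among 16 tested mitochondrial proteases and import factors 3 rose and 2 fell at 14 d in BALB/c, where 7.9% of all tested probe sets rose and 5.4% fell. The import pore subunit Tomm40 (1.66 ± 0.27, adjusted p = 0.0013), Timm13 (0.77 ± 0.23, 0.038) and the matrix protease subunit Clpp (0.50 ± 0.12, 0.014) rose, and Tomm34 (-2.07 ± 0.35, 0.0018) and the protease Htra2 (-0.98 ± 0.29, 0.035) fell. None of the 16 was called by limma at 14 d in C57BL/6J.

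The compartment relatives of the members were not called in any of the 12 comparisons: Hspa5, the Hsp70 of the endoplasmic reticulum (3115 to 7093 over the 24 arrays), Hsp90b1, its Hsp90 (3385 to 8710), and Hspa9, the mitochondrial Hsp70 (2020 to 3727). Of 17 tested genes of the endoplasmic reticulum and its stress response, only Creld2 was called at 24 h or 14 d in C57BL/6J. It rose at 24 h (0.73 ± 0.16, adjusted p = 0.025) and fell at 14 d (-0.58 ± 0.16, adjusted p = 0.034). Of all tested probe sets 1.19% rose at 24 h and 4.32% fell at 14 d. The Creld2 changes against other saline arrays are not given here. Manf (1.02 ± 0.20, 0.0043) and the collagen chaperone Serpinh1 (1.03 ± 0.24, 0.014) rose at 72 h in C57BL/6J, as labelled. Without the 4 saline arrays of 72 h neither was called, with 0.48 ± 0.18 for Manf (adjusted p = 0.13) and -0.05 ± 0.19 for Serpinh1 (adjusted p = 0.90). In BALB/c at 14 d Pdia4 (-1.06 ± 0.24), P4hb (-1.91 ± 0.53) and Ddit3 (-1.15 ± 0.35) fell and 0 rose, with adjusted p of 0.011, 0.025 and 0.039. Of all tested probe sets 5.4% fell and 7.9% rose there.

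Immediate early genes, which respond within minutes to handling and stress, were counted as well. At 14 d in C57BL/6J, where 3.11% of all tested probe sets were called higher, 5 of 17 tested immediate early genes rose and 0 fell: Junb (1.65 ± 0.36, adjusted p = 0.011), Egr2 (0.94 ± 0.21, 0.012), Egr1 (0.94 ± 0.26, 0.035), Atf3 (0.95 ± 0.27, 0.042) and Fos (0.88 ± 0.26, 0.046). At 24 h in C57BL/6J Fos rose (1.21 ± 0.26, adjusted p = 0.022) and Jund fell (-2.58 ± 0.64, adjusted p = 0.043). At 72 h in C57BL/6J 0 member probe sets were called, and 4.12% of all tested probe sets rose. Of the 17 immediate early genes 5 rose (Fos, Fosl1, Egr1, Egr2 and Atf3) and 0 fell. Without the 4 saline arrays of 72 h Fos, Egr2 and Atf3 were still called there (1.33, 1.06 and 1.19) and Fosl1 and Egr1 were not (1.45 and 0.70). In BALB/c at 14 d Fos (1.04 ± 0.26, adjusted p = 0.015) and Atf3 (1.08 ± 0.27, 0.017) rose and Btg2 fell (-1.23 ± 0.34, 0.024). Of all tested probe sets 7.9% rose and 5.4% fell there.

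The genes whose log2 levels were most like 3 of the members over the 24 arrays were listed as a description. For Hspa1b they were Rangap1 (r = 0.78), Stip1 (0.77), Ceacam1 (0.77), Nop2 (0.75) and Map3k6 (0.74). For Hsph1 they were Dnajb2 (0.83), P4ha1 (0.81), Stip1 (0.80), Dalrd3 (0.79) and Mcee (0.78), and for Hspd1 Asb6 (0.77), Mns1 (0.75), Tmem205 (0.73), Ddx18 (0.70) and Nfkbia (0.68). Stip1, the adaptor that joins Hsp70 to Hsp90, was in both of the first lists. It read 1139 and 1357 on the C57BL/6J saline 14 d arrays and 676 and 824 on the bleomycin arrays, without overlap, and its change there was not called (-0.67 ± 0.27, adjusted p = 0.14). Members were left out of all of these lists, among them Hspe1, with r = 0.80 to Hspd1.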

How the data were processed

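Each of the 24 arrays has a deposited table of linear intensity values by probe set. How they were summarised is not given in these sources. The mean of the deposited intensity values between the 2nd and 98th percentiles was 799.9 on every array, so they were used without further normalization. The 66 control probe sets were left out, which left 12422. An offset of 92, the median lower quartile, was added before taking log2 of the deposited intensities. Probe sets above 225.7, the 40th percentile, on 2 or more arrays entered the tests (8710). Gene names came from GEO's platform annotation of the array. A gene's main probe set was the one annotated to that gene alone with the highest mean.

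Groups were taken from the sample titles. A mean per group was fitted over all 24 arrays with limma 3.58.1 in R 4.3.3 (lmFit and eBayes with a variance trend, 12 residual degrees of freedom, two-sided). P-values were adjusted by Benjamini-Hochberg over the 8710 probe sets within each of 12 comparisons, and calls were made at an adjusted p under 0.05. Intensities are means ± SD of 2 arrays, and log2 changes carry the SE of the model. Alternatives were quantile normalization, array weights, offsets of 46 and 276, a filter at the 60th percentile or none, a block on the array letter, a fit without the trend, other saline arrays as control, no saline arrays of 72 h, and each array left out. In simulated data for the C57BL/6J 24 h comparison, 20.9%, 59.7% and 97.0% of log2 changes of 0.5, 1 and 2 were called among 8710 probe sets, so the number of arrays limits what can be called. The members and gene lists were chosen with earlier results of these data known. All member probe sets are named, up to 5 genes of smallest p of each other list, and the 5 genes most like Hspa1b, Hsph1 and Hspd1. Promoters are RefSeq's, 250 bases before to 50 after each start on GRCm38.p6.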

Additional observations from a re-analysis of the deposited data

Results flagged for a closer look

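The results below were singled out because a test of the difference between 2 effects passed, between strains or between times. The bleomycin effect at 14 d was lower in C57BL/6J than in BALB/c by log2 -2.0 for Hsph1, -1.88 for Hspa4 96594_at, -1.21 for Hspa1b, -0.96 for Hspe1 and -0.77 for Dnajb1. The bleomycin effect in C57BL/6J was lower at 14 d than at 24 h by -2.21 for Hsph1, -1.96 for Hspa1b, -1.47 for Hspa4 96594_at and -0.94 for Dnajb1. In BALB/c it was higher at 14 d by 0.84 for Hspe1 and lower by -1.39 for 161140_r_at of Hspd1. With 2 arrays in each group, no group could be examined for a single array far from the others.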

How the results depend on the processing

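Counts below are of the 12 member probe sets called. Totals over all tested probe sets moved as well. Without the saline arrays of 72 h they went from 194 to 152 at 24 h in C57BL/6J and from 115 to 526 at 72 h in BALB/c. They went from 1158 to 1040 at 14 d in BALB/c and from 433 to 373 for the BALB/c change between times. For most other settings no totals are given, so those counts have no background beside them. At 24 h in C57BL/6J the count of 2 became 1 with the offset of 276, with no filter, with all saline arrays or without the saline arrays of 72 h, and 0 with saline of 14 d. At 72 h in C57BL/6J the count of 0 became 1 with the 60th percentile, array weights, saline of 14 d, saline of 24 h or all saline arrays. At 14 d in C57BL/6J the count of 4 became 2 with array weights or saline of 24 h. In BALB/c the count of 0 at 72 h became 1 with array weights or saline of 14 d, and the count of 2 at 14 d became 1 with no filter, all saline arrays or without the saline arrays of 72 h, and 0 with saline of 24 h. The strain difference had 1 call in place of 0 at 72 h with saline of 14 d, and in place of 5 at 14 d it had 3 with no filter, 2 with all saline arrays and 1 with array weights or saline of 24 h. The saline difference had 1 call in place of 2 with no filter, 4 at 14 d alone and 1 at 24 h alone. The BALB/c change between times had 1 call in place of 2 with no filter, array weights, saline of 14 d or without the saline arrays of 72 h.

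Of 144 values (12 probe sets in 12 comparisons) the sign changed for 37 with saline of 24 h, 38 with saline of 14 d, 27 with all saline arrays, 16 without the saline arrays of 72 h and 8 with quantile normalization. Those called in either fit were 4 with saline of 24 h, Hspa1b at 14 d in C57BL/6J (0.18) and in the strain difference (0.65), 161140_r_at of Hspd1 at 72 h in C57BL/6J (1.25) and Hspe1 at 14 d in BALB/c (-0.18), and 1 with saline of 14 d, Dnajb1 at 72 h in C57BL/6J (-0.67). With quantile normalization Hspa1b was not called at 14 d in C57BL/6J (-0.78, adjusted p = 0.081) or in the strain difference (-1.10, 0.075), nor Dnajb1 in the strain difference (-0.65, 0.076) or the C57BL/6J change between times (-0.78, 0.072), while 93277_at of Hspd1 was called at 14 d in BALB/c (1.23, 0.026) and in the strain difference (-1.78, 0.040). The controls differ by construction, and the cause of the other shifts was not tested. Of 395 values recomputed under these alternatives, for probe sets called in a comparison at least once, 324 kept their direction and side of the threshold.

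Leaving out 1 array at a time, the counts ranged from 0 to 2 (24 h), 0 to 1 (72 h) and 1 to 4 (14 d) in C57BL/6J, 0 to 0, 0 to 0 and 0 to 4 in BALB/c, 0 to 0, 0 to 0 and 1 to 7 for the strain difference, 0 to 2 for saline, and 1 to 5 (C57BL/6J) and 0 to 3 (BALB/c) for the change between times. The lone array left in a group was then assumed to vary like the other groups. With the array letter as a replicate block the counts were 2 at 24 h and 3 at 14 d in C57BL/6J, 2 at 14 d in BALB/c, 4 for the strain difference at 14 d, 2 after saline, and 4 and 2 for the changes. Over all tested probe sets the block gave 183, 620, 1082, 568, 222, 205 and 397 calls in the same order. With it Hspa1b was not called at 14 d in C57BL/6J (adjusted p = 0.058) or in the strain difference (0.060). The letters were not taken as pairs. The a minus b differences of saline and bleomycin correlated over 0.1 in 3 of 6 cases (r from -0.07 to 0.31, the highest in C57BL/6J at 14 d). The block was 1 common difference between the letters over all groups, so pairing within a strain and time was not tested. The saline 24 h control and the saline difference by time were added after the values were seen.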

Other observations

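The brightest Hspa4 probe set, 96594_at, was set against all other tested genes after its values were seen. The genes most like it over the 24 arrays on the log2 scale were Ube2b (r = 0.90), an enzyme that attaches ubiquitin, Thbd (0.83), the thrombin receptor of endothelium, Bcl6 (0.83), Fkbp4 (0.81) and Wdr13 (0.81). All member probe sets, those of Hspa4 among them, were left out of that ranking. The correlations of 96594_at with the other Hspa4 probe sets lay between -0.29 and 0.07.

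For Hsp90aa1, also examined after its values were seen, the genes most like 95282_at were Hmgn1 (r = 0.87), Cd74 (0.86), Gnai2 (0.86), Rpl19 (0.85) and Cox6a1 (0.85). Its 2 lowest values lay on the 2 arrays with the lowest maxima. For Hspe1 they were Znrd1 (0.85), Asb6 (0.77), Gna13 (0.77), the proteasome subunit Psmc2 (0.73) and Adsl (0.72). Members were left out of these lists as well, and Asb6 was also the non-member most like Hspd1 (0.77).

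Within C57BL/6J bleomycin at 14 d, array a was lower than array b for Hsph1 (697 and 1428), Hspa4 96594_at (979 and 2371), Hspd1 93277_at (3194 and 6178) and Fkbp4 (1633 and 4009). Hspa1b (625 and 503) and Hspa8 (4380 and 3710) went the other way, and the surfactant gene Sftpc read 14576 and 710 on the same arrays.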
